A study of Mustela putorius furo with 20 samples.

Results

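The genes described here are the ribosomal proteins and the translation factors of the ferret, measured in the outer subventricular zone (oSVZ) of the developing cortex. The set was chosen with earlier results of these data known. Its members were taken by symbol, leaving out the *RPS6K* kinases. The rule took numbered *RPL* and *RPS* genes, *RPLP* and *RPSA* genes, numbered *EIF* genes and the *EEF1* and *EEF2* genes. This rule gave 92 genes among 32,057 identifiers, and 87 of them were among the 12,669 genes with enough reads to be tested. Ribosomal proteins and ribosomal RNA together build the large and the small subunit of the cytoplasmic ribosome, and in vertebrates their short, abundant mRNAs begin with a terminal oligopyrimidine tract through which mTORC1 sets their translation. Initiation factors (eIF) bring the small subunit and the initiator tRNA to an mRNA, elongation factors (eEF) deliver the following aminoacyl-tRNAs and move the ribosome forward, and a few kinases slow either step. Growing and dividing progenitors, such as the radial glia of the oSVZ, are known for strong expression of this machinery.

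RNA was taken from the oSVZ beneath the coronal gyrus (CG), which folds outward, and beneath the suprasylvian sulcus (SSS), which folds inward, at the start of folding on postnatal day 5 (P5) and during folding on P15. There were 5 ferrets at each age and each gave 1 library per region, so the 20 libraries fell into 4 groups of 5 and the animal was the replicate. Each library held the area captured by laser from 50 pooled Nissl-stained sections, amplified by single primer isothermal amplification (SPIA), which adds no molecular identifiers. No genotype, strain or treatment distinguished the groups, and animals are numbered 1 to 5 within their age. Each library had 2,488,477 to 4,277,326 assigned reads, and levels are given as CPM, reads scaled to a common library size by TMM. All 13 radial glia markers with an identifier were detected, with a summed level of 7791 to 12,693 CPM over the 20 libraries. Between 49 and 1371 of the tested genes had no read in a library, with the highest number in the SSS of P15 animal 4. A region of tissue was measured, so fewer cells of a type and less RNA per cell cannot be told apart in any comparison below. Transcript lengths were not used, so levels are compared between groups and not between genes.

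By role, the 92 genes comprised 15 large-subunit and 14 small-subunit ribosomal proteins, 7 ribosomal protein paralogues or relatives, 34 initiation factors, 5 subunits of eIF2B, 8 regulators, 4 elongation factors and 5 modifiers of elongation factors or others. The 5 genes with too few reads to test included *RPS15* and *EIF4E1B*, with 0 reads in all 20 libraries. The others were *RPL10L* with 7 reads in 1 library, *RPL3L* with 9 reads in 3 libraries, and *EEF1AKMT3* with 23 reads in 5 libraries. A count of 0 in every library does not show that a gene is not expressed, and its source was not tested. *RPL3L* and *RPL10L* encode tissue-restricted relatives of RPL3 and RPL10 that are known from striated muscle and testis. The tested genes were 28 ribosomal proteins of both subunits, 5 paralogues or relatives, 33 initiation factors, all 5 eIF2B subunits, all 8 regulators, all 4 elongation factors and 4 others. *RPLP0*, *RPS6*, *EEF1A1*, *EIF5A* and *EIF4E* were not analysed here. Ribosomal proteins whose identifier has no symbol also fall outside the rule. Ribosomal protein genes have many near-identical processed copies in mammalian genomes. In the study's counting, reads that mapped to more than 1 place were left unassigned, so some reads of these genes may be missing. Whether this loss differed between the groups was not tested.

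The 28 ribosomal proteins took the largest share of reads in the P5 CG and the smallest at P15. Their share of assigned reads was 3.74 to 5.88% in the P5 CG, 3.38 to 4.34% in the P5 SSS, 1.91 to 3.84% in the P15 CG and 1.87 to 3.44% in the P15 SSS. Their summed level was 47341, 62252, 41413, 38580.0 and 46089.7 CPM in the CG of P5 animals 1 to 5, and 37205, 46669.8, 36669.7, 36406 and 34644 CPM in the SSS of the same animals. At P15 it was 33719, 16996, 21773, 38490.0 and 32365 CPM in the CG and 35159, 16745, 18554, 28077 and 30781 CPM in the SSS. The CG exceeded the SSS in 5 of 5 animals at P5 and in 4 of 5 at P15, and no P15 library exceeded the lowest P5 CG library. The ratio of mean summed levels, P15 to P5, was 0.608 in the CG and 0.675 in the SSS. All members with *EIF* and *EEF* symbols, the modifiers and others included, had mean sums of 12,612 ± 948 CPM (SD, n = 5) in the P5 CG, 12,549 ± 713 CPM in the P5 SSS, 9871 ± 1059 CPM in the P15 CG and 10,076 ± 1121 CPM in the P15 SSS.

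**Figure D1:**
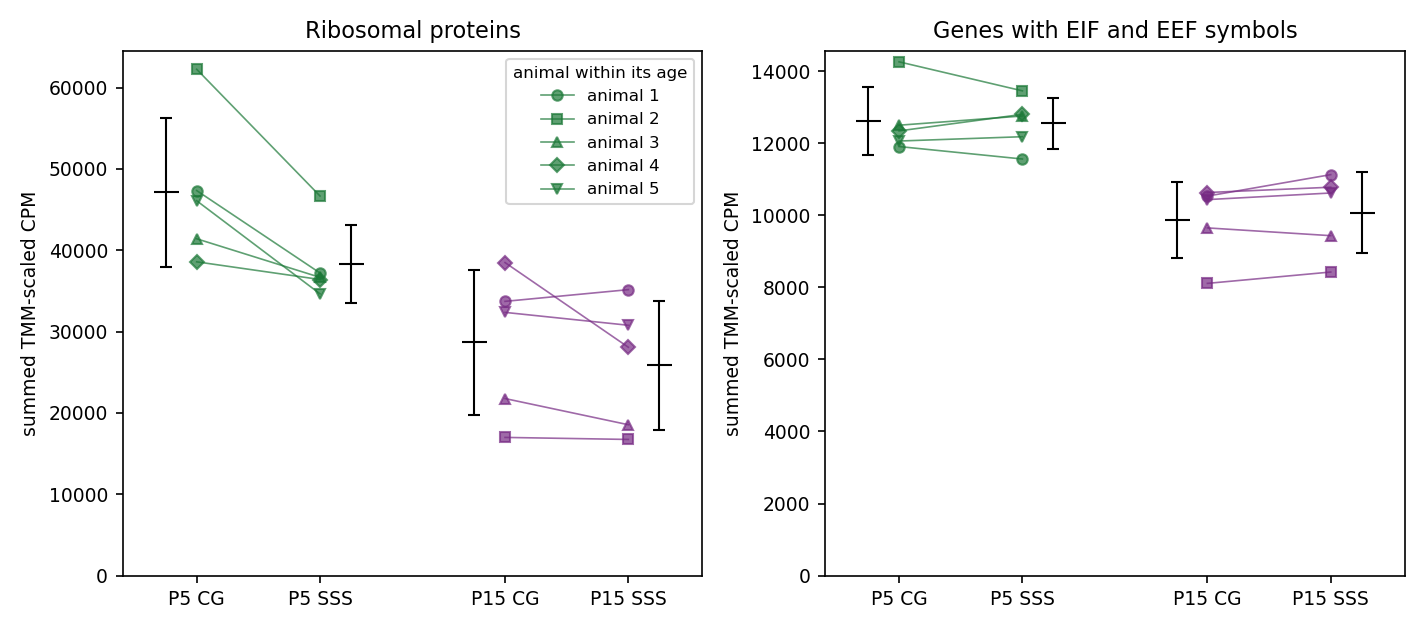
Summed TMM-scaled level (CPM) of the 28 tested ribosomal proteins (left) and of all members with *EIF* and *EEF* symbols, the modifiers and others included (right). Each symbol is 1 library, lines join the CG and SSS library of an animal, and black bars are the group mean ± SD (n = 5). P5 animal 2 stood highest at 62,252 CPM in the left panel, and P15 animals 2 and 3 lay lowest, at 16,745 to 21,773 CPM.

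Single animals stood apart in these genes in both of their libraries. P5 animal 2 had the highest level of its group for 25 of 28 ribosomal proteins in the CG and for 22 of 28 in the SSS. P15 animals 2 and 3 had the 2 lowest levels of their group for 26 of 28 ribosomal proteins in the CG and 25 of 28 in the SSS. The same held for 12 and 14 of the 50 tested initiation and elongation factors, eIF2B subunits and regulators. The total of members called between ages is therefore given below with and without P15 animals 2 and 3. So are the median of the ribosomal proteins and the number of them called. This choice was made after seeing the data, and the other age counts include both animals unless stated.

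The first comparison asked whether the translation machinery differed between gyrus and sulcus as folding began. At P5 all 28 ribosomal proteins had a higher fitted level in the CG than in the SSS of the same animal, with a median log2 fold change of 0.26 and a range of 0.09 to 0.68. The median of all genes tested was 0.02, and 51.5% of them were positive. No member passed an FDR of 0.05 in the quasi-likelihood test of edgeR, blocked by animal (0 of 87, against 0.0395% of all genes tested). By this test none can be said to differ. At an unadjusted p under 0.05 there were 22 of the 87, which is 25.3% against 8.03% of all genes, and 18 of these were ribosomal proteins, all higher in the CG. DESeq2 called 6 members and limma-voom called 11, where they called 0.837% and 0.426% of all genes. Without the SSS library of P15 animal 4, edgeR called 6 members (0.398% of all genes).

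*RPL38* (ENSMPUG00000014257), a large-subunit protein known in the mouse for its part in the translation of *Hox* mRNAs, had the lowest FDR of the members. Its level was 790.2, 1391, 1043, 783 and 1177 CPM in the CG of P5 animals 1 to 5 and 655, 1045, 778, 569 and 646 CPM in the SSS. The CG exceeded the SSS in each of 5 animals while the ranges of both regions overlapped, and the log2 fold change was 0.49 ± 0.10 (SE, FDR 0.0703). *RPLP2*, an acidic stalk protein that contacts elongation factors, followed at 0.50 ± 0.11 (FDR 0.0907), and *RPLP1*, its stalk partner, had 0.38 ± 0.11 (FDR 0.233). *RPS19*, which is mutated in Diamond-Blackfan anaemia in humans, had the largest log2 fold change of the ribosomal proteins, 0.68 ± 0.17 (FDR 0.149). The study, in its own paired edgeR test, did call *RPS19* higher in the CG at P5. It also called unannotated genes that it predicted to be ribosomal proteins. *RPL13A* (ENSMPUG00000002604) had 2922, 3827, 2371, 2420.4 and 2784 CPM in the CG and 2596, 2427, 1846, 2299.7 and 1713 CPM in the SSS. The CG again exceeded the SSS in 5 of 5 animals, by 0.39 ± 0.10 on the log2 scale (FDR 0.18). In all, 14 of 28 ribosomal proteins had more in the CG than in the SSS of all 5 animals and none had less in all 5. How many of all genes went 1 way in all 5 animals was not counted, so how unusual this is cannot be judged.

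The animals did not contribute equally. The median log2 difference between CG and SSS over the 28 ribosomal proteins was 0.25 in P5 animal 1, 0.40 in animal 2, 0.07 in animal 3, 0.08 in animal 4 and 0.44 in animal 5, and 27, 28, 19, 21 and 28 of the 28 had more in the CG. All 5 medians were positive, but those of animals 3 and 4 were close to 0. The medians of the large and the small subunit were 0.27 over 15 genes and 0.25 over 13.

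Outside the ribosomal proteins the P5 contrasts went both ways. The 33 initiation factors had a median log2 fold change of 0.01, with 18 positive. *EEF2K* (ENSMPUG00000016807), the kinase that phosphorylates eEF2 and so slows elongation, went the other way in all 5 animals. Its levels were 9.08, 22.3, 21.9, 17.2 and 19.7 CPM in the CG and 27.7, 50.01, 26.3, 36.3 and 28.7 CPM in the SSS, and the regions did not overlap. The log2 fold change was -0.91 ± 0.24 (SE), with an unadjusted p of 7.98e-04 and an FDR of 0.18 in the edgeR test, so it did not pass. *EIF4B*, a cofactor of the helicase eIF4A, had less in the CG than in the SSS in 5 of 5 animals, at 170.1, 212, 194, 211 and 129.6 CPM against 246, 244, 223, 278 and 214 CPM in the SSS without overlap, with -0.41 ± 0.14 (FDR 0.381). *EIF4H*, a second such cofactor, had -0.50 ± 0.23 (FDR 0.589). *EIF2S3B*, named as the gamma subunit of eIF2, was the one initiation factor with more in the CG in all 5 animals, by 0.31 ± 0.12 (FDR 0.509).

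**Figure D2:**
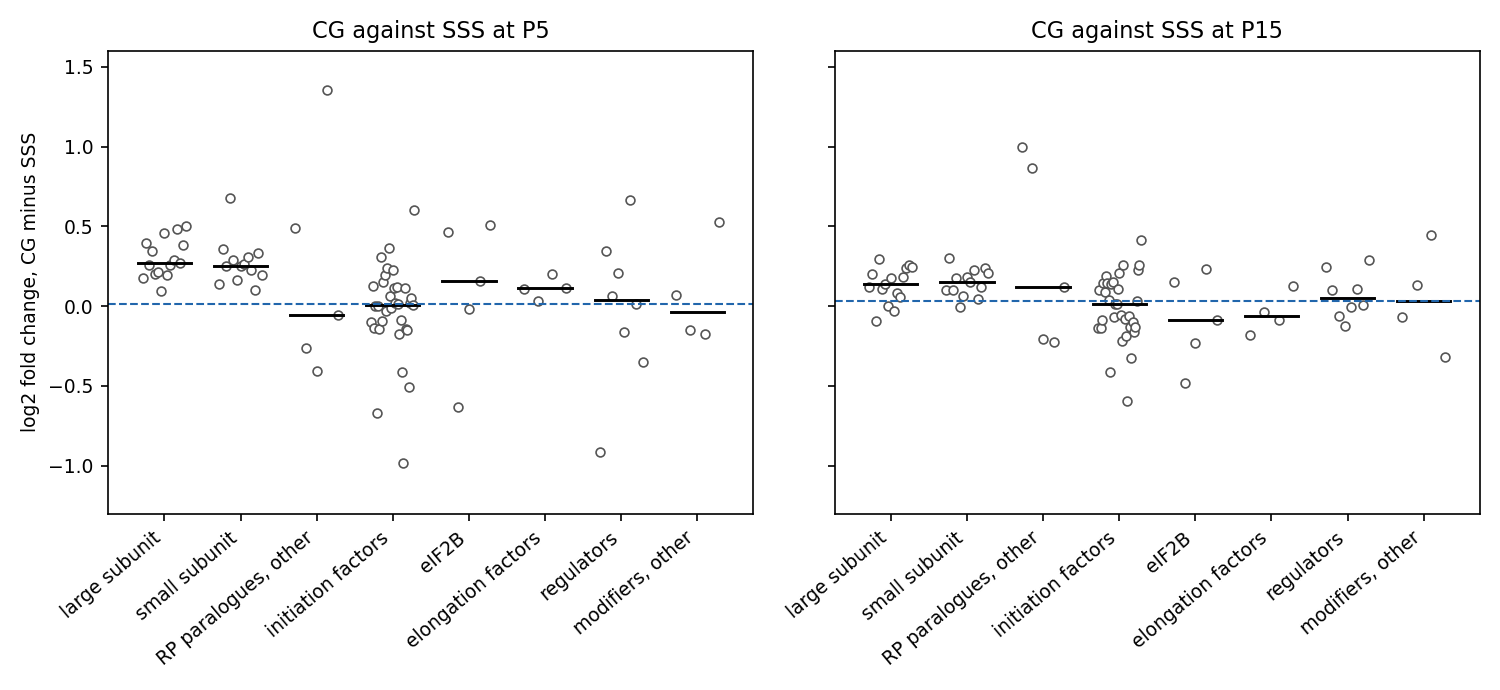
Fitted log2 fold change between CG and SSS (CG minus SSS, vertical axis) of the 87 tested members by role, at P5 (left) and P15 (right). Each circle is 1 gene, open circles have an FDR of 0.05 or more, black lines are role medians and the blue dashed line is the median of all 12,669 genes. Both ribosomal protein columns lie above 0 at P5 (medians 0.27 and 0.25), while the initiation factors centre on 0.01.

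At P5 markers of some cell types also lay higher in the CG, and those of others went both ways. All 12 tested markers of dividing cells were positive (median log2 fold change 0.50, 0 called), with a summed level of 1113 to 2003 CPM in the CG and 880 to 1744 CPM in the SSS. Of 13 radial glia markers 12 were positive (median 0.29, 1 called), with sums of 10,448 to 12,693 and 7791 to 9702 CPM, and of 9 astrocyte markers 8 were positive (median 0.62, 0 called), with sums of 1153 to 1584 and 801 to 1406 CPM. Of 10 interneuron markers 8 were positive (median 0.21, 0 called), with sums of 693 to 916 and 640 to 928 CPM. Of 10 markers of young neurons 6 were negative (median -0.14, 0 called, 4 with less in the CG at an unadjusted p under 0.05), and of 9 oligodendrocyte lineage markers 5 were negative (median -0.05, 1 called, with less in the CG, FDR 0.0333). Microglial markers (4 of 9 positive) and vessel markers (6 of 10 positive) had medians of -0.02 and 0.07 with 0 called. No marker of these lists with an identifier was at 0 in all libraries. Of 57 tested mitochondrial ribosomal proteins 44 were positive (median 0.22), and of 39 nuclear-encoded respiratory chain subunits 35 (median 0.20). The part of these cell types in the difference was not tested.

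At P15 the ribosomal proteins leaned the same way by a smaller amount. Of the 28, 25 were positive with a median of 0.15 (0.03 over all genes, 54% positive). In 3 the CG exceeded the SSS in all 5 animals, again without a count over all genes. No member passed the FDR (0 of 87, against 0.0158% of all genes), DESeq2 and limma-voom called 0 members, and 6 of 87 members had an unadjusted p under 0.05 (6.9%, against 3.72%). The animal medians were -0.08, -0.03, 0.24, 0.48 and 0.07 for animals 1 to 5, so both signs occurred and animal 4 was highest. Without animal 4, whose SSS library had the most undetected genes, the median over the ribosomal proteins was 0.06. Of 13 radial glia markers 11 were positive at P15 (median 0.18, 0 called), while 9 of 10 markers of young neurons were negative (median -0.27, 0 called) and 7 of 10 of interneurons (median -0.41, 1 called). Positive were also 7 of 12 markers of dividing cells (median 0.08), 8 of 9 of astrocytes (0.24) and 8 of 10 of vessels (0.30). For microglia it was 6 of 9 (0.18) and for the oligodendrocyte lineage 3 of 9 (-0.05), with 0 called in these lists. Among the members the lowest p belonged to *RPL22L1* (ENSMPUG00000017113), the paralogue of the RNA-binding ribosomal protein RPL22, with 67.1, 40.4, 54.0, 67.8 and 58.1 CPM in the CG and 23.7, 22.9, 16.7, 37.7 and 52.4 CPM in the SSS. The CG exceeded the SSS in all 5 animals although the regions overlapped, and its log2 fold change of 1.00 ± 0.26 (unadjusted p 7.92e-04) had an FDR of 0.772 in the edgeR test.

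Averaged over both ages, all 28 ribosomal proteins were positive (53.7% of all genes) with a median of 0.19, and 18 of them had an unadjusted p under 0.05. No member was called by edgeR (0 of 87, against 0.0789% of all genes), and 22 had an unadjusted p under 0.05 (25.3%, against 8.66%). DESeq2 and limma-voom each called 8. Their share over all genes is not set beside these 8, so no excess of members is read from them. *RPS27A*, which encodes a ubiquitin fused to a small-subunit protein, had 4907, 3979, 3728, 3521 and 3544 CPM in the P5 CG, 3166, 3314, 3001, 3114 and 3180.4 CPM in the P5 SSS, 2639, 1175, 1767, 2487 and 2906 CPM in the P15 CG and 2236, 1163, 1468, 1880.3 and 2500.1 CPM in the P15 SSS. The CG exceeded the SSS in 10 of 10 animals, with an averaged log2 fold change of 0.27 ± 0.06 (FDR 0.0823). *RPL7* and *RPL13A*, both of the large subunit, were the only other members with more in the CG of 10 of 10 animals, with 0.25 ± 0.06 (FDR 0.103) and 0.30 ± 0.07 (FDR 0.133). Genes with this pattern were not counted outside the members.

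The test of the difference between the regional contrasts at P15 and P5 called no gene of the 12,669 (0%) and no member, and the lowest FDR of the members was 0.998. DESeq2 and limma-voom also called 0 members, and 4 of 87 had an unadjusted p under 0.05 (4.6%, against 3.85%). Of the 28 ribosomal proteins 26 had a lower contrast at P15 than at P5, with a median difference of -0.11 (-0.27 without P15 animal 4), where 50.9% of all genes had a positive one. *EEF2K* had the lowest p, with a difference of 1.16 ± 0.33 (unadjusted p 0.00159, FDR 0.998). The CG had less in 5 of 5 animals at P5 and more in 4 of 5 at P15, where its log2 fold change was 0.25. A smaller regional contrast at P15 was therefore not shown for any member.

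RNA quality differed between the libraries, and the RNA integrity number (RIN) that the study measured was used as a covariate. RIN was higher in the CG than in the SSS in 3 of 5 animals at P5 (equal in 1) and in 4 of 5 at P15. Across the libraries, beside the 4 group means, no gene had a called slope on RIN (0% of all genes, 0 of 87 members). Of the 28 ribosomal proteins 18 had a negative slope (52.1% of all genes were positive), the median was -0.04 log2 units per RIN unit, and 4 of 87 members had an unadjusted p under 0.05 (4.6%, against 5.32%). The sign of that median depended on single animals: it was -0.16 without P5 animal 2, -0.098 without P15 animal 5, and 0.03, 0.01 and 0.04 without P15 animals 1, 3 and 4. Within animals, where only the difference between the 2 libraries of an animal counts, 27 of 28 ribosomal protein slopes were negative with a median of -0.17. At an unadjusted p under 0.05 there were 17 of 87 members (19.5%, against 10.2% of all genes), 10 of them ribosomal proteins, and again none was called. The lowest FDR was that of *RPLP1*, with a slope of -0.32 (FDR 0.197).

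With RIN as a covariate the regional differences of the ribosomal proteins were larger. The median at P5 was 0.35 in place of 0.26, 27 of 28 log2 fold changes increased, and 5 members were called (0.213% of all genes), namely *RPL13A*, *RPL38*, *RPLP1*, *RPLP2* and *RPS19*. At P15 the median was 0.21 in place of 0.15, with no call, and averaged over both ages it was 0.28 in place of 0.19, with 9 calls (0.505% of all genes). With the RNA concentration of the libraries as the covariate the P5 median was 0.38 with 4 calls (0.118% of all genes). With the ratio of 28S to 18S RNA it remained at 0.26 with none. *EEF2K* at P5 had a log2 fold change of -0.996 with RIN (FDR 0.115). The 3 covariates were entered 1 at a time.

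**Figure D3:**
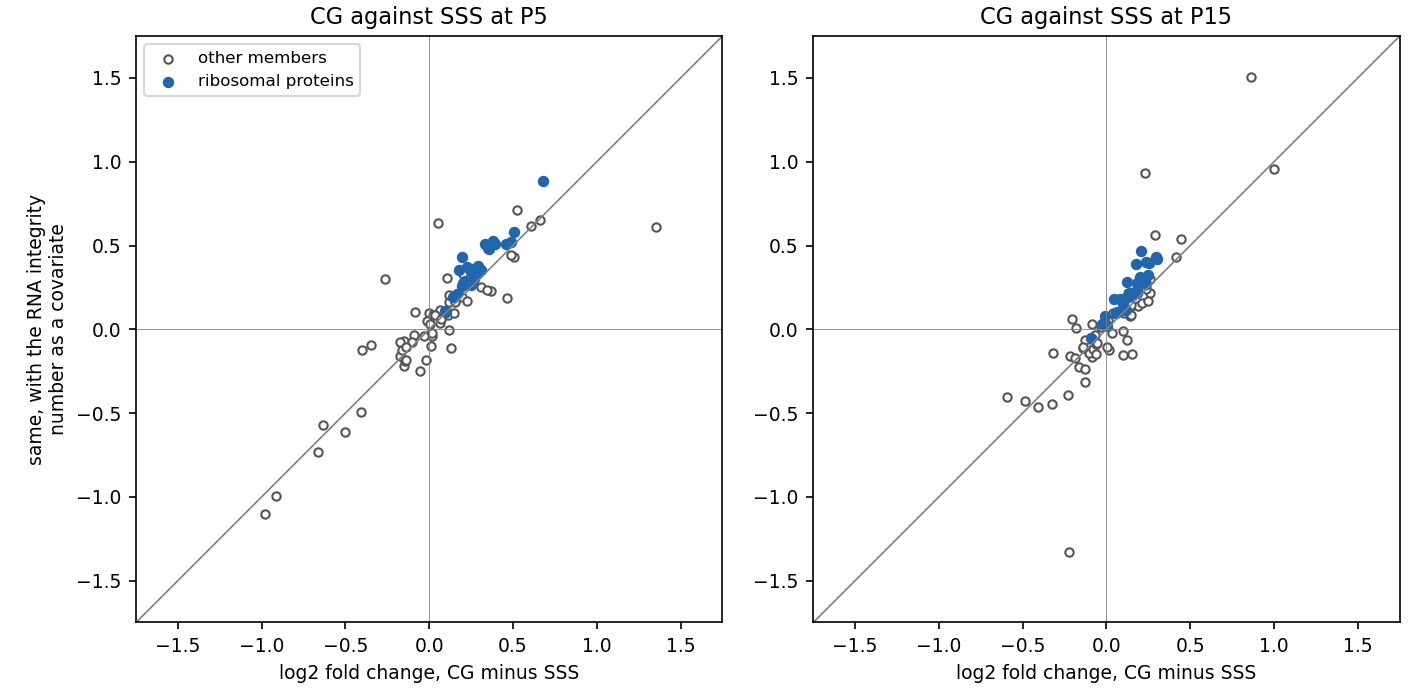
Fitted log2 fold change (CG minus SSS) of the 87 members without a quality covariate (horizontal axis) and with RIN as a covariate (vertical axis), at P5 (left) and P15 (right). Filled points are the 28 ribosomal proteins, open points the other members, and the grey diagonal marks equal values. 27 of 28 ribosomal proteins lie above the diagonal at each age.

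The second question was how the machinery changed from P5 to P15. In the CG 27 of the 87 members passed an FDR of 0.05, against 13.1% of all genes tested, and 25 of them fell. This is 28.7% of the members, where 5.72% of all genes fell, while 2 members rose, where 7.39% of all genes rose. All 28 ribosomal proteins had a lower fitted level at P15, with a median log2 fold change of -0.72 (-0.01 over all genes), and 18 of them fell, 8 of 15 in the large and 10 of 13 in the small subunit. In the SSS 22 of 87 members passed (14.6% of all genes), of which 20 fell (6.46% of all genes) and 2 rose (8.19%). There 27 of 28 ribosomal proteins were lower, with a median of -0.58, and 11 fell, 5 in the large and 6 in the small subunit. All 11 were also among the 18 of the CG, whose libraries come from the same animals. The 7 that passed in the CG alone included *RPL38*, *RPLP2*, *RPS18*, *RPS19*, *RPS20* and *RPS23*, and no difference between the regions was shown for any of them.

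*RPS27A* (ENSMPUG00000010468), the ubiquitin fusion of the small subunit, fell from 3521 to 4907 CPM at P5 to 1175 to 2906 CPM at P15 in the CG. The 2 ages did not overlap, and the log2 fold change was -0.84 ± 0.20 (SE), FDR 0.00432. In the SSS the libraries lay at 3001 to 3314 CPM at P5 and 1163 to 2500.1 CPM at P15, again without overlap, with -0.77 ± 0.20 (SE), FDR 0.0085. *RPS16*, also of the small subunit, had the largest change of the ribosomal proteins, -1.11 ± 0.27 (SE), FDR 0.00537 in the CG and -1.004 ± 0.27 (SE), FDR 0.011 in the SSS. Its level in the P5 CG was 2113, 4139, 1866, 1728 and 2042 CPM, so that animal 2 stood far above the others, and in the P15 CG it was 1278, 516, 791, 1681 and 1243 CPM. *RPL13A* and *RPL28*, both of the large subunit, fell in the CG (-1.01 ± 0.21 (SE), FDR 0.00114, and -1.02 ± 0.22 (SE), FDR 0.0016) and in the SSS (-0.83 ± 0.21 (SE), FDR 0.00664, and -0.79 ± 0.22 (SE), FDR 0.0121).

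*RPS2* was the exception among the ribosomal proteins. This small-subunit protein had 2863, 4283, 2408, 1867 and 2717 CPM in the P5 CG, 3432, 1644, 1909.8, 3269 and 2575 CPM in the P15 CG, 2028, 2831, 2457, 1869.9 and 2093 CPM in the P5 SSS and 3802, 1773, 1842, 2683 and 2783 CPM in the P15 SSS. The 2 ages overlapped in both regions, and the log2 fold changes were -0.14 ± 0.22 (FDR 0.758) in the CG and 0.19 ± 0.22 (FDR 0.634) in the SSS. *RPL7* and *RPL3*, both of the large subunit, also missed the threshold, with -0.38 ± 0.18 (FDR 0.165) and -0.44 ± 0.19 (FDR 0.137) in the CG. Of the 28 ribosomal proteins 11 had 5 P15 CG libraries that all lay below the 5 P5 CG libraries, and 5 did so in the SSS. Over the 87 members such genes numbered 20 in the CG (23%, against 5.49% of all genes) and 10 in the SSS (11.5%, against 4.43%), while 2 lay wholly higher at P15 in the CG (7.32% of all genes) and 1 in the SSS (5.52%).

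**Figure D4:**
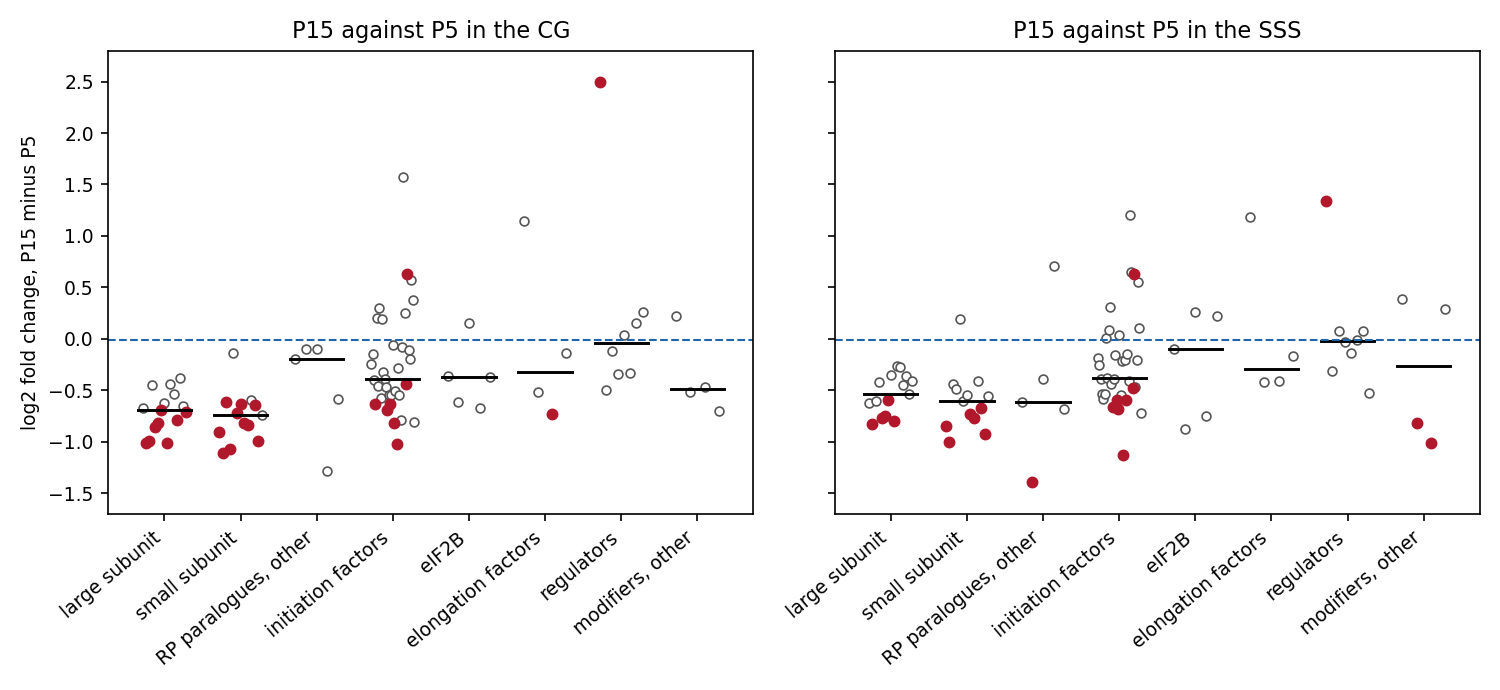
Fitted log2 fold change between ages (P15 minus P5, vertical axis) of the 87 tested members by role, in the CG (left) and the SSS (right). Each circle is 1 gene, red filled circles have an FDR under 0.05, black lines are role medians and the blue dashed line is the median of all 12,669 genes. *EEF2K* is the highest red point in both panels (2.49 and 1.34), and the ribosomal protein medians lie between -0.74 and -0.54.

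The age difference depended in size on P15 animals 2 and 3. Without these 2 animals the median over the ribosomal proteins was -0.45 in the CG, with 27 of 28 negative, and -0.24 in the SSS, with 26 of 28 negative. The number of members called fell to 7 in the CG (8.05%, against 5.79% of all genes), which included *EEF2K*, *EIF3M*, *RPL13A*, *RPL28* and *RPS27A*. In the SSS 4 members were called (4.6%, against 7.31% of all genes), among them *EEF2K*, *EIF3M* and *RPS27A*. Of the 28 ribosomal proteins 5 still fell in the CG and 2 in the SSS. Leaving out 1 animal at a time gave 14 to 32 calls in the CG, with 14 without P5 animal 2, P15 animal 2 or P15 animal 3. In the SSS it gave 7 to 27, with 14 without P5 animal 2, 13 without P5 animal 4, 14 without P15 animal 2 and 7 without P15 animal 3. RIN as a covariate left 26 calls in the CG and 20 in the SSS, with ribosomal protein medians of -0.72 and -0.56. For RIN and for 1 animal left out, no share over all genes is set beside the counts. They describe how stable the calls were and not an excess of members.

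Markers of cell types moved with age as well. Of 10 tested markers of young neurons 9 fell in each region, with summed levels of 1234 to 1912 CPM (P5 CG), 1211 to 2230 (P5 SSS), 341 to 425 (P15 CG) and 427 to 554 CPM (P15 SSS). Of 9 astrocyte markers 8 rose in the CG and 7 in the SSS, with sums of 1153 to 1584, 801 to 1406, 4744 to 8435 and 5084 to 7818 CPM in the same order. Of 9 markers of the oligodendrocyte lineage 8 rose in each region, with sums of 246 to 367, 213 to 551, 914 to 3874 and 1018 to 3453 CPM. Of 12 markers of dividing cells 5 fell in the CG and 2 in the SSS, with sums of 1113 to 2003, 880 to 1744, 903 to 1287 and 777 to 1117 CPM. Other lists went both ways. Of 13 radial glia markers 4 rose and 1 fell in the CG (median -0.06) and 5 rose and 2 fell in the SSS (median 0.15), with sums of 10,448 to 12,693, 7791 to 9702, 8481 to 11,951 and 7901 to 10,749 CPM. Of 10 interneuron markers 2 rose and 4 fell in the CG and 2 rose and 3 fell in the SSS, with sums of 693 to 916, 640 to 928, 909.6 to 1230.3 and 1160.5 to 1719.8 CPM. Microglial markers rose for 5 and 6 of 9, and vessel markers for 2 and 3 of 10. No marker of these lists with an identifier was at 0 in all libraries. The part of the change in cell types in the fall of the ribosomal proteins was not tested.

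Among the initiation factors more genes fell than rose with age. Of 33 tested, 6 fell and 1 rose in each region, where 5.72% of all genes fell and 7.39% rose in the CG and 6.46% fell and 8.19% rose in the SSS, with medians of -0.39 in the CG and -0.38 in the SSS. Without P15 animals 2 and 3, *EIF3M* was the only initiation factor called in either region. The complex eIF3, which holds the small subunit and recruits the mRNA, had 12 tested subunits, with medians of -0.53 and -0.42, and 4 of 12 fell in each region. *EIF3M* (ENSMPUG00000011311) fell most, from 148, 137, 161, 197 and 167 CPM to 81.4, 52.8, 59.4, 108.1 and 98.7 CPM in the CG and from 126, 157, 152, 179.8 and 131 CPM to 93.9, 43.5, 41.0, 74.9 and 87.2 CPM in the SSS. The 2 ages did not overlap in either region, and the log2 fold changes were -1.02 ± 0.23 (SE), FDR 0.00291, and -1.13 ± 0.23 (SE), FDR 0.001. *EIF3H* also fell in both (-0.63 ± 0.16 (SE), FDR 0.00904, and -0.59 ± 0.16 (SE), FDR 0.0133). *EIF3F* (-0.70, FDR 0.00517) and *EIF3K* (-0.82, FDR 0.0138) passed in the CG alone, and *EIF3E* (-0.66, FDR 0.0182) and *EIF3I* (-0.68, FDR 0.0233) in the SSS alone. No difference between the regions was shown for these 4. *EIF3A*, the largest scaffold subunit, had 0.19 (FDR 0.663) in the CG and 0.09 (FDR 0.85) in the SSS, with levels of 270.4 to 549 CPM in the P5 CG and 332 to 507 CPM in the P15 CG.

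The 3 eIF4G genes moved differently from one another. *EIF4G3* (ENSMPUG00000016068), a scaffold that joins the cap-binding protein to eIF3, rose from 280.2, 304, 398, 363 and 384 CPM to 418, 646, 652, 488 and 479.8 CPM in the CG, without overlap, and from 276, 356, 509, 336 and 472 CPM to 410.1, 719.9, 675, 614 and 589 CPM in the SSS, with overlap. The log2 fold changes were 0.63 ± 0.19 (SE), FDR 0.0223, and 0.63 ± 0.19 (SE), FDR 0.0221. *EIF4G2*, a relative that lacks the site for the cap-binding protein and acts in other modes of initiation, fell from 2459.9, 2693, 3123, 3301 and 3092 CPM to 2128, 1909, 2031, 2130.2 and 2596 CPM in the CG, with overlap (-0.44 ± 0.15 (SE), FDR 0.044). In the SSS it fell by 0.48 on the log2 scale (SE 0.15, FDR 0.0269). *EIF4G1*, the general scaffold, had 0.25 (FDR 0.58) in the CG and 0.65 (FDR 0.0675) in the SSS and did not pass. The call of *EIF4G2* held in 10 of 25 alternatives in the CG and 15 of 25 in the SSS, and that of *EIF4G3* in 22 and 20 of 25.

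The helicase eIF4A, which unwinds the start of the mRNA, is encoded by *EIF4A1* and *EIF4A2*. *EIF4A2*, the form known to predominate in the adult brain of mammals, fell in the SSS (-0.60 ± 0.19 (SE), FDR 0.032) and had -0.55 (FDR 0.0554) in the CG. The call of *EIF4A2* held in 15 of 25 alternatives. *EIF4A1* had -0.28 (FDR 0.593) and -0.21 (FDR 0.696). *EIF2A*, which encodes a factor able to deliver the initiator tRNA outside eIF2, fell in the CG (-0.64 ± 0.19 (SE), FDR 0.026) and had -0.53 (FDR 0.0618) in the SSS. *EIF4E3*, a cap-binding relative of eIF4E, was low, at 0 to 6.67 CPM in the P5 CG and 1.53 to 13.5 CPM in the P15 CG. Its log2 fold changes of 1.58 ± 0.85 (FDR 0.248) and 1.20 ± 0.84 (FDR 0.381) did not pass. *EIF1* and *EIF1B*, close relatives that guard start codon choice, had -0.24 and -0.40 in the CG and -0.19 and -0.39 in the SSS, and neither passed (lowest FDR 0.333). Of the 5 eIF2B subunits, which reload eIF2 with GTP, none passed in either region, and their log2 fold changes ran from -0.67 to 0.15 in the CG and from -0.88 to 0.26 in the SSS.

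*EEF2K* was the member with the lowest p between ages in both regions, and it rose. In the CG its level went from 9.08, 22.3, 21.9, 17.2 and 19.7 CPM at P5 to 126, 115, 93.9, 85.1 and 90.3 CPM at P15, and in the SSS from 27.7, 50.01, 26.3, 36.3 and 28.7 CPM to 78.3, 81.8, 81.6, 103 and 82.8 CPM. Every P15 library was above every P5 library in both regions. The group means were 18.03 ± 5.40 CPM (SD, n = 5) and 102 ± 17.4 CPM in the CG, and 33.8 ± 9.86 CPM and 85.5 ± 9.92 CPM in the SSS. The fitted change was 5.63-fold in the CG (log2 2.49 ± 0.26 (SE), FDR 2.24e-08) and 2.53-fold in the SSS (log2 1.34 ± 0.25 (SE), FDR 2.73e-04). The call held in 25 of 25 alternatives in each region. Its substrate *EEF2*, the translocase of elongation, had -0.14 ± 0.18 (FDR 0.701) and -0.17 ± 0.18 (FDR 0.608), with 400.1 to 727 CPM in the P5 CG and 350.2 to 711 CPM in the P15 CG.

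**Figure D5:**
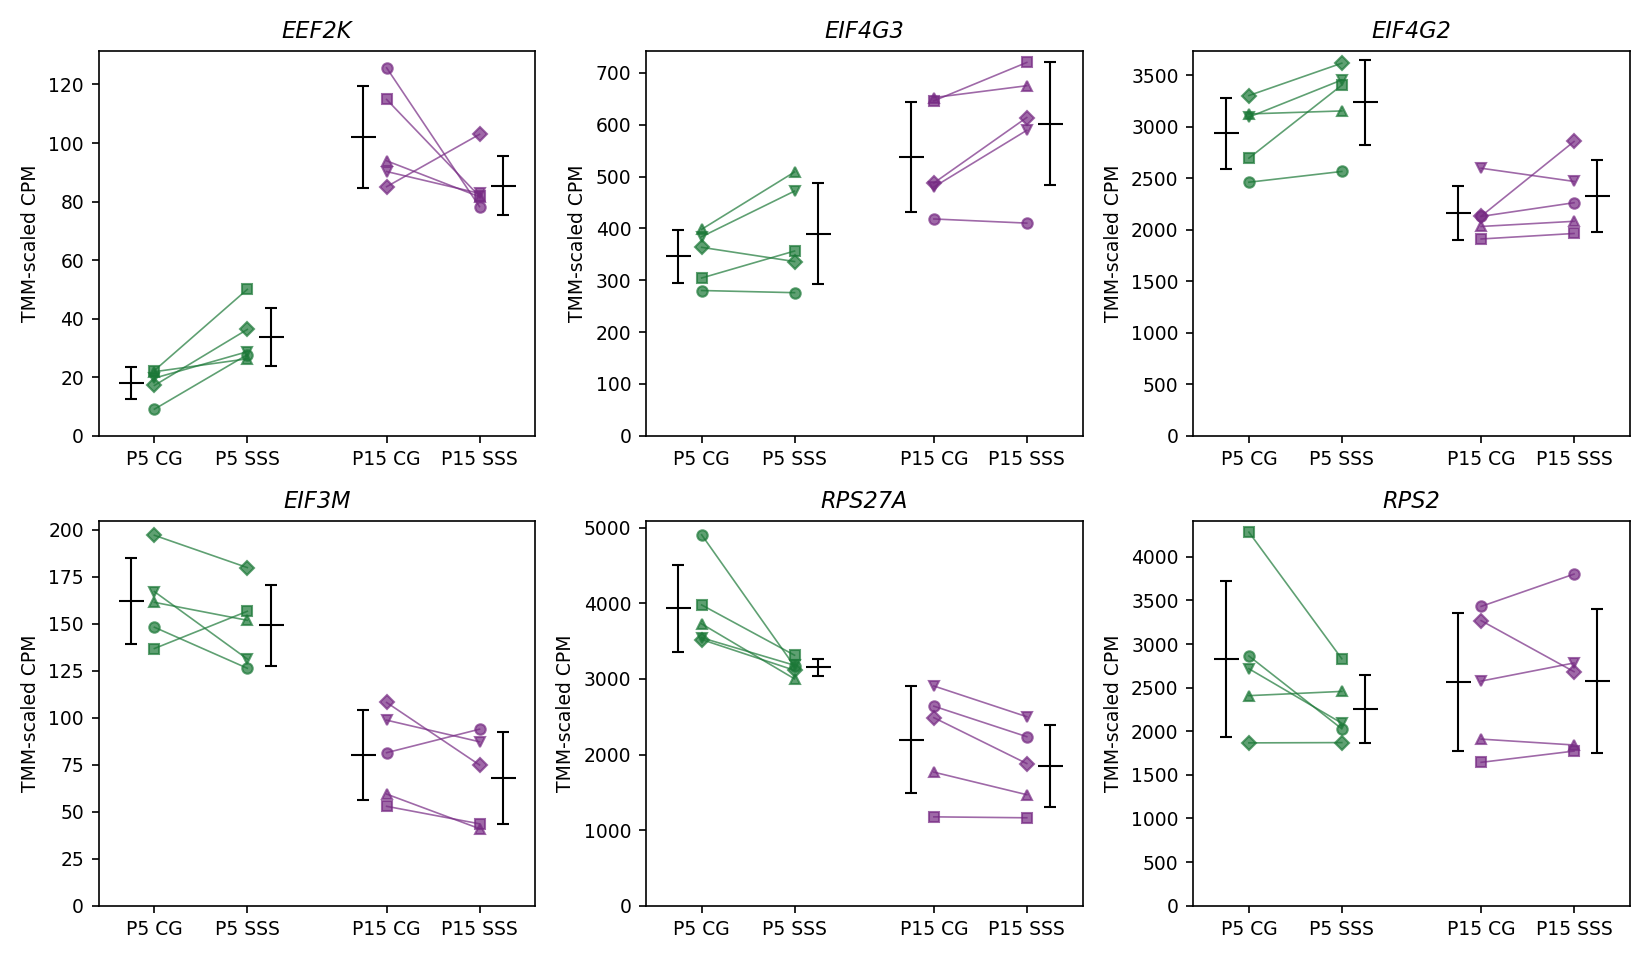
TMM-scaled CPM in each library of *EEF2K*, *EIF4G3*, *EIF4G2*, *EIF3M*, *RPS27A* and *RPS2*. Green is P5 and purple is P15, symbols mark animals 1 to 5 of an age as in the plot of summed levels, lines join the libraries of an animal, and black bars are the group mean ± SD (n = 5). *EEF2K* rises from a highest P5 value of 50.01 to a lowest P15 value of 78.3 CPM, *RPS27A* and *EIF3M* fall without overlap, and *RPS2* overlaps between the ages.

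The other elongation factors were less uniform. *EEF1G*, a subunit of the exchange factor of eEF1A, fell in the CG (-0.73 ± 0.23 (SE), FDR 0.034) and had -0.41 (FDR 0.259) in the SSS. *EEF1B2*, its nucleotide-exchanging partner, had -0.51 (FDR 0.112) and -0.42 (FDR 0.191). *EEF1A2*, the form of eEF1A that replaces eEF1A1 in mature neurons and muscle of rodents, had 10.1, 18.7, 9.26, 8.74 and 19.7 CPM in the P5 CG and 16.9, 15.8, 29.4, 60.6 and 24.5 CPM in the P15 CG, and the ages overlapped. Its log2 fold changes were 1.14 ± 0.43 (FDR 0.0815) and 1.19 ± 0.44 (FDR 0.064). *EEF1AKMT2*, a lysine methyltransferase of eEF1A, fell in the SSS (-0.82 ± 0.22 (SE), FDR 0.00945), as did *EEF1E1*, a scaffold of the multi-synthetase complex (-1.01 ± 0.30 (SE), FDR 0.0209).

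No regulator besides *EEF2K* passed in either region. The 4 kinases of eIF2, which respond to haem and mitochondrial stress, double-stranded RNA, unfolded proteins and uncharged tRNA, are encoded by *EIF2AK1*, *EIF2AK2*, *EIF2AK3* and *EIF2AK4*. Their log2 fold changes were -0.50, -0.12, -0.34 and 0.04 in the CG and -0.31, 0.08, -0.03 and -0.14 in the SSS. *EIF4EBP1* and *EIF4EBP2*, which withhold eIF4E until mTORC1 phosphorylates them, had -0.33 ± 0.68 and 0.15 ± 0.23 in the CG. *EIF4EBP1* was low throughout, at 1.32 to 15.1 CPM over the 20 libraries.

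Where both members of a paralogue pair were tested, their age changes were set side by side without a test of the difference. *RPL26* fell in both regions (-0.82, FDR 0.00891, and -0.75, FDR 0.0156), while *RPL26L1* fell in the SSS (-1.39 ± 0.44 (SE), FDR 0.0296) and had -0.10 (FDR 0.921) in the CG, and no difference between the regions was shown for it (FDR 0.998). *RPL26L1* had few reads, at 30.6, 22.1, 32.3, 46.1 and 15.4 CPM in the P5 SSS and 12.1, 11.97, 9.28, 4.08 and 17.9 CPM in the P15 SSS, and its call held in 13 of 25 alternatives. *RPL22* had -0.45 and -0.42, and *RPL22L1* -0.20 and -0.61, in CG and SSS, with no call. *RPL7* had -0.38 and -0.36, and *RPL7L1*, a nucleolar assembly factor, -0.10 and -0.39, also with no call. *RPS27L*, a target of p53 in human cells, had -0.58 (FDR 0.172) and -0.69 (FDR 0.0932), and *EIF5A2*, the less widespread form of the hypusine-bearing factor eIF5A, had 0.57 (FDR 0.588) and 0.55 (FDR 0.585).

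Other gene lists of protein synthesis were counted in the same way, beside the shares of all genes given above. Of 28 tested ribosome biogenesis factors, none fell, and 0 rose in the CG and 1 in the SSS, with medians of -0.12 and -0.06. The one that rose was *POLR1A*, the largest subunit of RNA polymerase I (2.28, FDR 0.0475). Of 19 aminoacyl-tRNA synthetases 2 fell in the CG (*GARS1*, -0.76, FDR 0.0166, and *VARS1*, -0.82, FDR 0.0389) and 0 in the SSS. Of 15 termination, recycling and poly(A)-binding factors 1 fell in each region, *PAIP2*, a repressor of the poly(A)-binding protein (-0.80, FDR 0.00443, and -0.82, FDR 0.0034). In the mTORC1 pathway 2 of 18 fell in the CG, the activating GTPase *RHEB* (-0.84, FDR 0.0115) and the kinase *RPS6KB2* (-1.73, FDR 0.038), and 1 in the SSS, the lysosomal adaptor *LAMTOR3* (-1.24, FDR 0.0326). Of 12 tested targets of the integrated stress response, to which the eIF2 kinases lead, 2 rose in each region. These were the lipoprotein receptor *VLDLR* (1.09 and 1.51) and *PHGDH*, which starts serine synthesis (0.91 and 1.15). *DDIT3* and *TRIB3* were not tested, being at 0 in all libraries, which does not show that they are not expressed. All 12 had a positive log2 fold change in the CG (median 0.38) and 10 in the SSS (median 0.46), where 49.4% and 49.3% of all genes did. Mitochondrial ribosomal proteins had medians of -0.40 and -0.24, with 2 and 4 of 57 fallen, and respiratory chain subunits -0.35 and -0.23, with 10 and 3 of 39. In neither region comparison was a gene of these 7 lists called.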

How the data were processed

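RNA of 20 libraries, 2 regions from each of 10 ferrets, was measured by paired-end sequencing after laser capture and SPIA. By the submitters' processing notes the authors used Trimmomatic 0.38, FastQC 0.11.9, STAR 2.7.9a, featureCounts (no version named), edgeR 3.42.4 and R 4.3.1, with the ferret genome MusPutFur1.0. The values that the authors deposited are raw counts per gene, whole numbers with no normalisation. No source used here says whether the counting used strand. In the deposited table the symbols follow the sorted order of the identifiers, so each identifier took the symbol of its rank. Of 32,057 identifiers 17,208 have a symbol, and the 29 ribosomal proteins had a median of 851 CPM under this pairing and 1.39 CPM when read line by line. Of the 92 symbols 90 are in the RefSeq gene table, used for names only. No sequences or coordinates are given.

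Tests were run with edgeR 4.0.16 in R 4.3.3, with DESeq2 1.42.0 and limma 3.58.1 as alternatives. Tables and figures used Python 3.11.15 with pandas 2.3.3, numpy 2.4.6 and matplotlib 3.10.9. The low-count filter was filterByExpr, at a minimum count of 10 and a total of 15, and libraries were scaled by TMM. An edgeR quasi-likelihood model of the older kind was fitted to all 20 libraries. The region contrasts had a block for the animal, and ages were compared within each region in a design of the 4 groups. Fold changes used a prior count of 0.125, and FDR values are Benjamini-Hochberg values over the 12,669 genes tested, with calls under 0.05. The pairing comes from the animal names in the labels. Residuals of the 2 libraries of an animal correlated by 0.0460 to 0.246 (median 0.141, n = 10), those of different animals by -0.160 to 0.142. With 5 pairs the smallest two-sided p of an exact rank test is 0.0625, and with 5 against 5 it is 0.00794. Calls therefore depend on the model of edgeR, which includes the sharing of spread between genes. RNA integrity, the ratio of 28S to 18S RNA and concentration came from the study's quality table and served as covariates only. The statistics were tested on simulated data, with changed genes drawn from across the expressed genes and not from the members alone. The simulation held no animal effect and took its spread from a fit without pairing, so recovery among the members was not measured. Between regions at P5 the test called 2% of genes changed 1.5-fold and 20% of those changed 2-fold. Between ages in the CG it called 1% and 18%, and no unchanged gene was called in either. The absence of a call therefore does not show the absence of a difference of these sizes.

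The members, roles and lists were chosen with earlier results of these data known. Named genes were the called members of a comparison (the 12 of lowest p where more than 12 moved in 1 direction), the 5 members of lowest p, and fixed paralogues, regulators and eIF2B subunits. *EEF1B2*, *EEF1G*, *EIF2A*, *EIF2S3B*, *EIF3A*, *EIF3I*, *EIF3K*, *EIF4B*, *EIF4H*, *RPS18*, *RPS20* and *RPS23* were named outside this rule, after their values were seen. Alternatives were other normalisations, filters, tests, designs and covariates, and leaving out animals. Results of some members are not reported here by name, although the counts include them.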

Additional observations from a re-analysis of the deposited data

Results flagged for a closer look

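The 5 libraries of each group were searched for 1 library far from the others by Dixon's test (critical value 0.71 for 5 libraries), in 220 groups of named members and summed levels. There were 12 such groups (5.45%), about the 1 in 20 that chance gives, and no member went one way in every animal at P5 and the opposite way in every animal at P15 (0 of 87).

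P5 animal 2 accounted for 5 of the 12. In the CG it had 4139 CPM of *RPS16*, where the other 4 libraries had 1728 to 2113, 814 CPM of *RPL22* (others 516 to 587) and 29.8 CPM of *EIF2B3* (others 20.96 to 23.3). The summed level of all members with *EIF* and *EEF* symbols was 14,256 CPM in that library (others 11,906 to 12,497). In the SSS of the same animal the ribosomal proteins summed to 46,670 CPM (others 34,644 to 37,205).

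In the CG of P15 animal 2 *RPL3* stood at 265 CPM, below the 409 to 467 of the others, and *EIF2B2* at 16.4 CPM, above 7.67 to 9.35. *EIF2B4* had 65.8 CPM in the CG of P15 animal 1 (others 29.9 to 38.7). *EIF2AK2*, the kinase that senses double-stranded RNA, had 119.8 CPM in the CG of P5 animal 1 (others 36.5 to 56.8), and *EIF5A2* had 13.0 CPM in the SSS of that animal (others 4.53 to 6.54). *RPL26L1* had 10.2 CPM in the CG of P5 animal 4 (others 25.2 to 29.5). *EEF2K* had 103 CPM in the SSS of P15 animal 4 (others 78.3 to 82.8), which raised the P15 SSS mean. The part of RNA quality or tissue content in these single libraries was not tested.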

How the results depend on the processing

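No called result changed direction, but the median RIN slope of the ribosomal proteins, -0.04, turned positive without P15 animal 1, 3 or 4 (0.03, 0.01 and 0.04) and without P15 animals 2 and 3 together (0.032). At P5 the members called between regions numbered 0, and 8 with no filter beyond 1 read, 6 with DESeq2, 11 with limma-voom, 3 with the newer quasi-likelihood test, 1 with the groups compared alone, 5 with RIN and 4 with RNA concentration as a covariate, 0 to 6 when animals were left out 1 at a time, and 6 without the SSS library of P15 animal 4. Averaged over both ages the 0 calls became 9 with no filter, 8 with DESeq2, 8 with limma-voom, 4 with the newer test, 9 with RIN and 4 with concentration. For P15, for the difference between the ages and for the RIN slope there were 0 calls under every alternative. The cause of these shifts was not tested. Only some of these settings have their share over all genes given above, and no excess of members is read from the others. Median log2 fold changes of the ribosomal proteins ranged, over animals left out, from 0.22 to 0.32 (P5), 0.06 to 0.21 (P15), 0.15 to 0.23 (both ages), -0.27 to -0.08 (difference), -0.84 to -0.59 (age, CG) and -0.72 to -0.45 (age, SSS). The median RIN slope was -0.17 within animals and ran from -0.16 (without P5 animal 2) to 0.041 (without P15 animal 4).

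Without the replicate block, that is without pairing the 2 libraries of an animal, 0 members were called in each region comparison, and 7 (P5), 3 (P15) and 7 (averaged) had an unadjusted p under 0.05. With the animal as a random effect (correlation 0.21) the age calls were 36 in the CG and 28 in the SSS. Age calls ranged from 14 to 32 in the CG and 7 to 27 in the SSS when 1 animal was left out, and were 7 and 4 without P15 animals 2 and 3. Under all other alternatives they stayed within 1.5 times the 27 and 22 given. These numbers stand without a share over all genes, except those without P15 animals 2 and 3. The depth, at most 4,277,326 reads, limits the members with few reads, such as *RPL26L1* and *EIF4EBP1*.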
